A study of Mus musculus with 24 samples.

Results

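Transcripts of 10 genes of natural killer (NK) cells were followed across 6 groups of mouse bone marrow samples in a study of precursor B cell leukaemia. The genes are the receptors Ncr1, Klrk1, Klrb1c, Klri1, Klri2 and Klrd1 and the cytotoxic granule genes Gzma, Gzmb, Prf1 and Nkg7. They were chosen by name from the 19938 genes measured, and the probe set of each was to be chosen by its mean level over the 24 arrays. Each of the 10 had 1 probe set, so that choice was empty, and no gene was left out by a filter. The first 3 groups form the leukaemia set. It holds tumour-bearing marrow of 7 mice labelled Sca1-BCR/ABLp190+Pax5+/- (heterozygous leukaemias), tumour-bearing marrow of 2 mice labelled Sca1-BCR/ABLp190 with no change of Pax5 named (both-copy leukaemias), and B220+ marrow B cells from 5 wild-type mice. The precursor set holds pro-B and pre-B cells taken before leukaemia from 3 Sca1-BCR/ABLp190+Pax5+/- mice (heterozygous precursors) and from 3 Sca1-BCR/ABLp190 mice (both-copy precursors), and the same cell stages from wild-type mice (wild-type precursors). The sample labels give 4 wild-type precursor samples, where the series text speaks of 3 mice, and all 4 were used. In the oncogene-bearing mice the BCR/ABLp190 fusion is driven from the Sca1 promoter, which is active in stem and early progenitor cells, so the oncogene is not restricted to B cells. All mice were kept in conventional housing with exposure to common pathogens. The labels give no ages and name no sort for the leukaemic marrow.

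NK cells kill infected or transformed cells when activating receptors outweigh inhibitory ones. Ncr1 encodes NKp46 and Klrk1 encodes NKG2D, both activating receptors, and Klrb1c encodes NK1.1, the marker used to sort NK cells from C57BL/6 mice. Klrd1 encodes CD94, which pairs with NKG2 proteins, and Klri1 and Klri2 encode a pair of lectin-like receptors that lie side by side on the chromosome. Perforin (Prf1) opens the target cell membrane for granzymes A and B (Gzma, Gzmb), and Nkg7 encodes a membrane protein of the granules. NK cells and T cells share the granule genes and several of the receptors, and B cell precursors are not known for them.

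The 250 bases before the annotated start were read from the RefSeq promoter table (GRCm38.p6), which has an entry for 8 of the 10 genes and none for Klri2 and Klrd1. Each sequence was searched on both strands for the core of RUNX sites (TGTGGT or ACCACA), factors that act in NK and T cells. Klri1, the gene that set the heterozygous leukaemias apart, and Klrk1, which lies in the same stretch of chromosome 6 and did not, are shown first. Klrc3, Klrc2 and Klrc1 lie between them. Ncr1 and Gzmb follow, a receptor and a granule gene with 2 matches each. The windows are chr6:129717133-129717382 (minus strand) for Klri1, chr6:129623865-129624114 (minus strand) for Klrk1, chr7:4337465-4337714 (plus strand) for Ncr1 and chr14:56262335-56262584 (minus strand) for Gzmb. Ncr1 has 2 windows in the table, and the first by start is shown. Capitals mark the RUNX core.
Klri1: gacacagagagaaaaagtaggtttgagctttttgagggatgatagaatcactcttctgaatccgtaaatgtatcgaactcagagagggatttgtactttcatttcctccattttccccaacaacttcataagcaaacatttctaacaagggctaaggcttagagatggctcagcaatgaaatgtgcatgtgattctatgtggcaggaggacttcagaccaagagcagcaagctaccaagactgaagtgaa
Klrk1: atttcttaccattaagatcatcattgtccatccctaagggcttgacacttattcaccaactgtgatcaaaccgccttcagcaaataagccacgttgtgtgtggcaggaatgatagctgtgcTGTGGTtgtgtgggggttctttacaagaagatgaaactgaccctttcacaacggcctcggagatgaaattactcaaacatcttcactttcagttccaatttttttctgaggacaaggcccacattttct
Ncr1: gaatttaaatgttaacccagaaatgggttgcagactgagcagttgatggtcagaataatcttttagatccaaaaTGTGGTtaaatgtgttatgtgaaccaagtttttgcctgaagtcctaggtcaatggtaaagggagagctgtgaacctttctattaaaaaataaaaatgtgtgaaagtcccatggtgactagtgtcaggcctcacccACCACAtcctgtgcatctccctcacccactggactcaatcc
Gzmb: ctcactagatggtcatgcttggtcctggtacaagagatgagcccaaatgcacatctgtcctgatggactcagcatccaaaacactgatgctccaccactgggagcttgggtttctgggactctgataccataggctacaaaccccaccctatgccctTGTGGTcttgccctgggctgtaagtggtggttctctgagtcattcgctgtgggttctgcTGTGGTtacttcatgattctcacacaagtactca
A RUNX core was found in 7 of the 8 sequences, and Klri1 was the one without it. Of the 32851 promoter windows of the same length in the table, 14.05% held a match. Among the other NK receptor genes listed for comparison, 9 of the 26 with an entry held one, among them Klrc1, Klrc2, Klrc3 and Klre1 of the same stretch. The short site of T-box factors (TCACAC or GTGTGA), to which T-bet and Eomes belong, was found in Gzmb, Ncr1 and Nkg7, against 12.3% of all windows. The STAT site TTCNNNGAA was found in Nkg7, against 7.02% of all windows. No matches overlapped. A match describes letters in the window and was not tied to binding here.

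Values are log2 expression levels made with RMA, which puts arrays normalized together on a common scale. No source says if all arrays were normalized together, and comparisons across the leukaemia and precursor sets assume that they were. A difference of 1 is a doubling, and levels of different genes are not compared, since probe sets differ in response. Differences are given as log2 difference ± SE from limma, fitted over all 19938 genes with Benjamini-Hochberg adjustment, and a gene was called at an adjusted p under 0.05. Lists of related genes and cell type markers were read from the same fits. The B lineage markers averaged 11.39 to 11.79 on the B220+ arrays and 11.60 to 11.74 over the precursor arrays, against 8.55 to 10.74 in the heterozygous and 7.75 to 9.31 in the both-copy leukaemias, so the leukaemic marrow held less B lineage RNA than the B220+ and precursor samples did. By the female transcript Xist, all 5 B220+ and all 4 wild-type precursor samples came from females and all 3 both-copy precursor samples from males. The heterozygous leukaemias came from 3 females and 4 males, the both-copy leukaemias from 1 of each, and the heterozygous precursors from 1 female and 2 males.

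The wild-type precursors held the highest group mean for 6 of the 10 genes (Ncr1, Klrk1, Klrb1c, Klri2, Gzma and Prf1), the heterozygous leukaemias for 3 (Klri1, Klrd1 and Gzmb) and the both-copy leukaemias for Nkg7. With each gene's 6 groups put in order of their means, there are 50 steps between neighbouring groups. At 9 of these steps the arrays of the 2 groups did not overlap, and at the other steps they did. For Klri1 the order ran from the heterozygous leukaemias (10.60 ± 1.52, mean ± SD, n = 7) through the wild-type precursors (6.52 ± 0.35, n = 4), both-copy leukaemias (6.26 ± 0.88, n = 2), B220+ cells (6.16 ± 0.43, n = 5) and both-copy precursors (5.73 ± 0.093, n = 3) to the heterozygous precursors (5.71 ± 0.021, n = 3). The gap below the heterozygous leukaemias was clear of overlap, and so was the smaller step from B220+ cells to both-copy precursors. For Ncr1, Klrb1c, Klri2, Gzma and Prf1 the single clear step was the one below the wild-type precursors. A step compares neighbouring groups alone. Further down the order, heterozygous leukaemia arrays reached 10.56 for Ncr1, 9.95 for Klrb1c, 9.14 for Gzma and 8.84 for Prf1. For these genes they overlapped the wild-type precursors, while for Klri2 all heterozygous leukaemias lay below them.

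**Figure D1:**
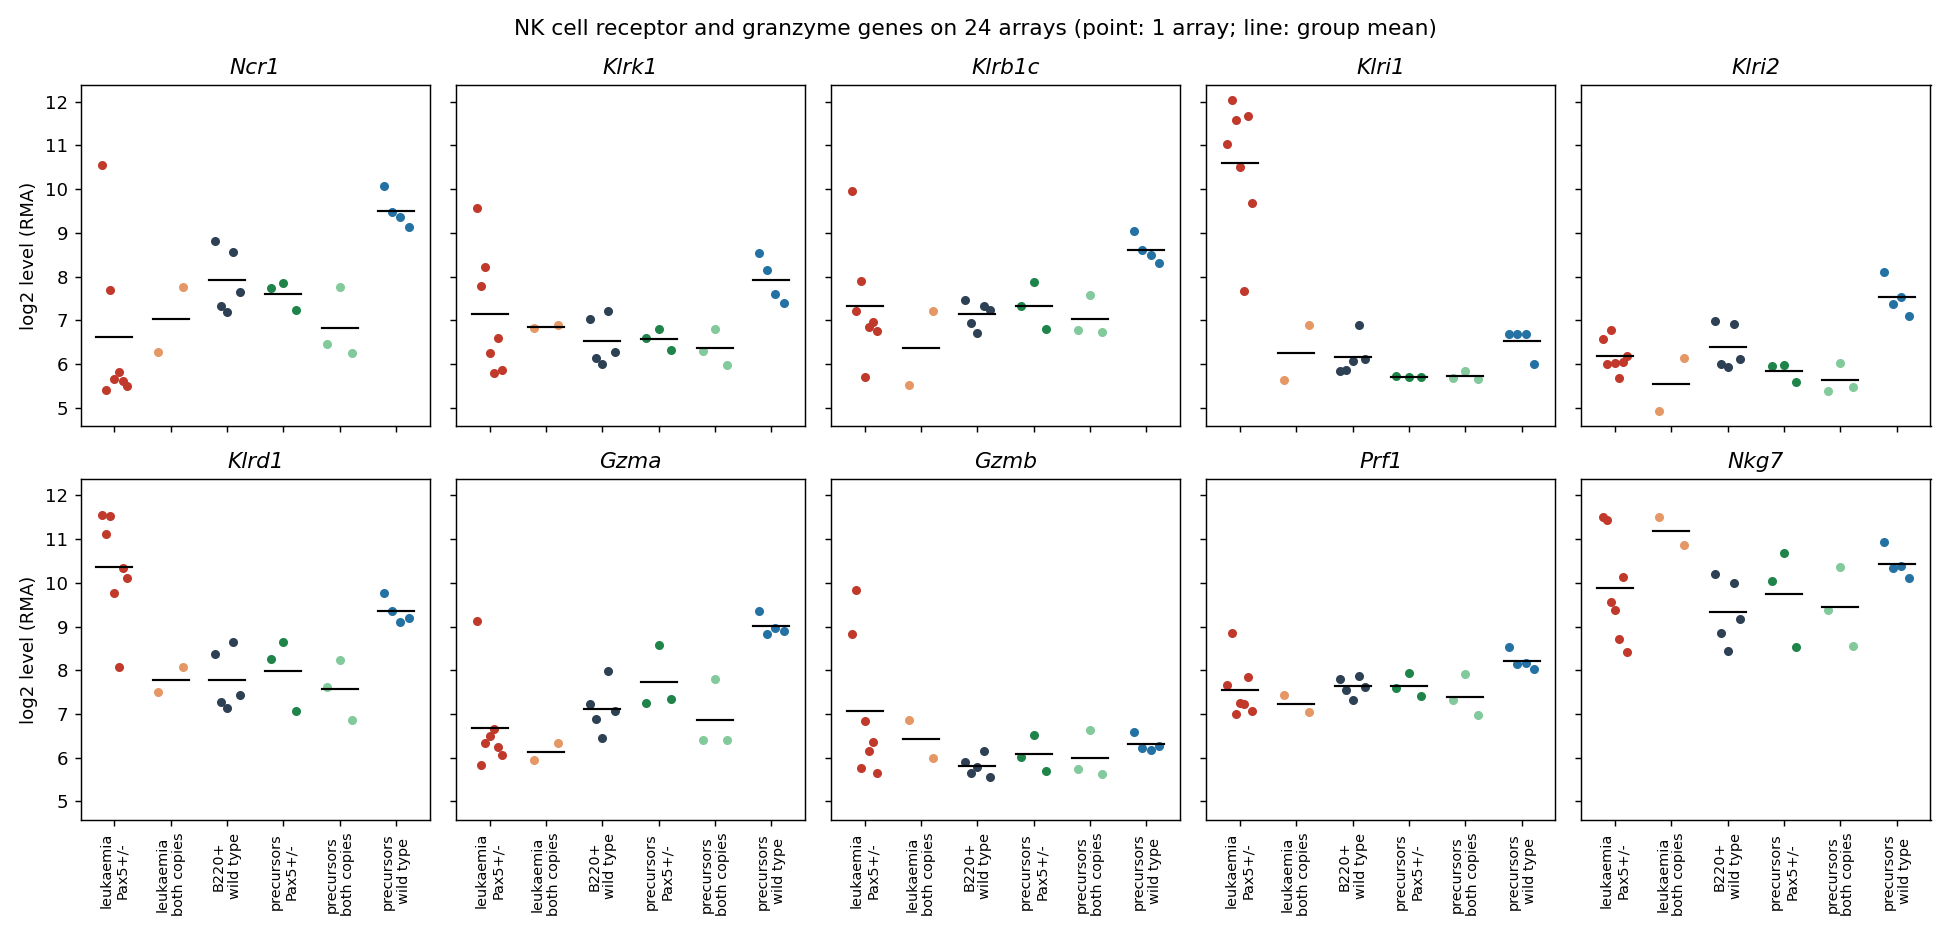
Log2 level (RMA) of each of the 10 genes on the 24 arrays, with 1 panel per gene, 1 point per array and a line at each group's mean. Klri1 stands between 7.66 and 12.03 in the heterozygous leukaemias and at 6.89 or below in every other group, while Ncr1, Klri2 and Gzma are highest on average in the wild-type precursors.

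The first comparison asks how the heterozygous leukaemias differ from wild-type B220+ cells. The lectin-like receptor Klri1 and the CD94 gene Klrd1 were higher in the leukaemias, and the other 8 genes did not pass the test. Klri1 was at 7.66 at its lowest, 11.04 at the median and 12.03 at its highest over the 7 leukaemias, against 5.85, 5.86, 6.07, 6.89 and 6.11 on the 5 B220+ arrays. The groups did not overlap, and leukaemia 5 lay nearest to the B220+ cells. Klri1 rose by 4.44 ± 0.64, a 21.8-fold difference (adjusted p = 0.000233). It had drawn attention earlier through its difference between the leukaemias, so the same 7 arrays enter here and this value is not independent of that choice. Klrd1 was at 8.08 at its lowest, 10.34 at the median and 11.55 at its highest in the leukaemias and at 8.37, 7.28, 7.15, 8.65 and 7.44 in the B220+ cells. Its groups overlapped through leukaemia 5 alone, which lay below 2 B220+ arrays. Klrd1 rose by 2.58 ± 0.55, a 5.99-fold difference (adjusted p = 0.00319). Thus 2 of the 10 genes were called, both higher, where 31.8% of all genes were called in either direction and 12.9% higher. For 1 of the 10, Klri1, every leukaemia lay above every B220+ array, where this held for 8.65% of all genes. The median over the 10 genes was 0.38, against -0.060 over all genes. The shares lie close to the background.

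The other receptors were uneven among the 7 leukaemias. Ncr1, which defines NK cells, was at 5.41 at its lowest, 5.66 at the median and 10.56 at its highest, against 8.82, 7.33, 7.19, 8.56 and 7.65 in B220+ cells. Leukaemia 1 alone exceeded every B220+ array, leukaemia 3 at 7.69 lay within their range and the remaining 5 lay below it. The difference was -1.30 ± 0.82 (adjusted p = 0.241). Klrk1 ran from 5.80 over a median of 6.60 to 9.56 and Klrb1c from 5.70 over 6.95 to 9.95, again with the highest value in leukaemia 1. Their differences from B220+ cells were 0.63 ± 0.60 (adjusted p = 0.434) and 0.20 ± 0.58 (adjusted p = 0.811). Klri2, the paired gene of Klri1, stayed between 5.69 and 6.77, within or just below the B220+ range of 5.92 to 6.97, and its difference was -0.20 ± 0.27 (adjusted p = 0.59).

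The granule genes passed the test in neither direction, though with array weights Gzmb passed as higher (1.53, limma adjusted p = 0.0387). Gzma was at 9.14 in leukaemia 1 and between 5.84 and 6.67 in the other 6, against 7.22, 6.89, 6.44, 7.98 and 7.08 in B220+ cells (difference -0.44 ± 0.49, adjusted p = 0.505). Gzmb was at 8.84 and 9.84 in leukaemias 1 and 2 and between 5.66 and 6.84 in the other 5, against 5.56 to 6.16 in B220+ cells (difference 1.25 ± 0.67, adjusted p = 0.166). So each granzyme was high in a small number of tumours, and the 2 did not share all of them. Perforin was highest in leukaemia 2 at 8.84, with the other 6 between 7.00 and 7.84, and Nkg7 was highest in leukaemias 1 and 2 at 11.51 and 11.44. Their differences from B220+ cells were -0.080 ± 0.28 (adjusted p = 0.841) and 0.55 ± 0.55 (adjusted p = 0.457).

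**Figure D2:**
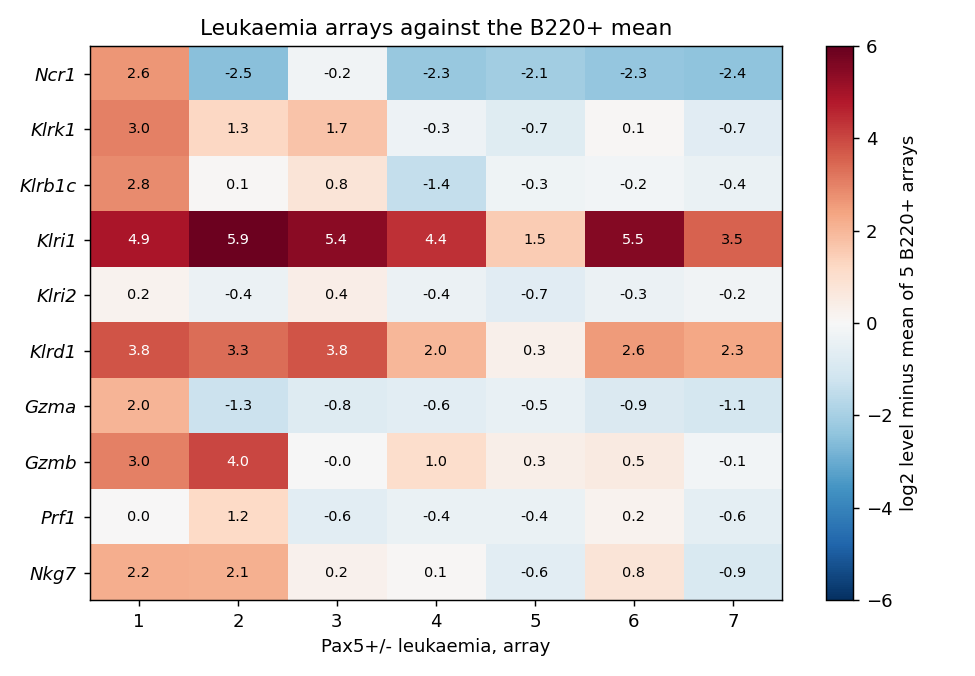
Log2 level of each gene (rows) in each of the 7 heterozygous leukaemias (columns) minus the mean of the 5 B220+ arrays, in colour and in digits. Klri1 is above that mean in all 7 and by 1.5 at its lowest, in leukaemia 5, while Ncr1 and Gzma are above it in leukaemia 1 alone.

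Leukaemia 1 carried the most RNA of NK cell markers. Over 7 such genes (Ncr1, Klrb1c, Eomes, Klre1, Klrc1, Klra8 and Il2rb) the mean level was 8.73 there and between 6.05 and 7.01 in the other 6, against 6.44 to 7.49 in the B220+ cells. Klri1 was at 11.04 in leukaemia 1 and at 12.03, 11.59 and 11.68 in leukaemias 2, 3 and 6, whose NK markers averaged no more than 7.01. In leukaemias 4, 5 and 7, with NK markers in the same low range, it was at 10.52, 7.66 and 9.69. The part of NK cells in the level of Klri1 was not tested. Without leukaemia 1, 4 of the 10 genes were called. Klri1 and Klrd1 stayed called, and Ncr1 fell by 1.96 (adjusted p = 0.00871) and Gzma by 0.85 (adjusted p = 0.0197). Of the 7 NK markers in the full comparison, Klra8 fell (-0.81 ± 0.22, adjusted p = 0.0128) and the other 6 did not pass. T cell markers averaged 6.68 to 7.997 in these leukaemias, highest in leukaemia 2, and 6.21 to 6.43 in B220+ cells, and 3 of 15 rose (Cd3g, Cd4 and Themis). Of 8 monocyte and macrophage markers 7 rose, among them Vcam1 (4.42 ± 0.61), Mrc1 (4.16 ± 0.56) and Csf1r (3.75 ± 0.41). B lineage markers went down, 7 of the 10 measured, with Cd79b (-1.41 ± 0.21), Cd22 (-1.87 ± 0.30) and Cd79a (-2.76 ± 0.47). The part of the T cell and macrophage RNA in the results for Klrd1, Gzmb, Prf1 and Nkg7 was not tested, and in marrow RNA more cells of a type and more RNA per cell cannot be told apart.

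Genes that work with these receptors moved both ways in the same comparison, where 31.8% of all genes were called in either direction and 12.9% higher. Of 24 other NK receptors measured, out of 29 listed, 4 rose and 3 fell, with a median of 0.27. Those with the smallest adjusted p were the adhesion receptors Cd96 (2.17 ± 0.38) and Cd244a (2.05 ± 0.42) and the Fc receptor Fcgr3 (1.92 ± 0.44), which myeloid cells also make. Of 18 adaptors and kinases 7 rose and 2 fell, with a median of 0.45. The adaptor Lat rose by 1.69 ± 0.17 and the exchange factor Vav3 by 1.48 ± 0.14, while Syk, a kinase of B cell and NK receptors, fell by 1.84 ± 0.12. Of 13 cytokine receptors and integrins 5 rose and 1 fell, with a median of 0.71. The 2 chains of the interleukin 18 receptor led them, Il18r1 at 4.11 ± 0.65 and Il18rap at 3.46 ± 0.36, followed by the integrin Itgal at 0.54 ± 0.15.

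Of 12 NK transcription factors 4 rose and 2 fell. Id2, which blocks E proteins, rose by 1.83 ± 0.29 and Tox by 2.02 ± 0.53, while Ets1 fell by 1.64 ± 0.12. Of 26 granule and effector genes other than the 4 above, 5 rose and 2 fell, with a median of 0.10. Tumour necrosis factor (Tnf) rose by 1.03 ± 0.19, and Gzmm and the vesicle fusion gene Stxbp2 fell by 0.31 ± 0.054 and 0.52 ± 0.10. Of 12 ligands of NK receptors 3 rose and 1 fell, and Pvr, a ligand of Cd96 and Cd226, rose by 1.57 ± 0.20. The ligand Nectin2 rose by 0.39 ± 0.074 and the NKG2D ligand H60b by 0.75 ± 0.21. Of 6 intracellular serpins, the measured genes of the Serpinb9 family and Serpinb6b, 4 rose, with a median of 1.34. The Serpinb9 family includes inhibitors of granzyme B. Hybridisation of 1 serpin's RNA to another's probes was not checked. Serpinb9d was higher by 5.40 ± 0.67, Serpinb6b by 2.56 ± 0.50 and Serpinb9 by 2.18 ± 0.48 (adjusted p of 7.49e-05, 0.00199 and 0.00409 in limma). These serpins were thus higher in a marrow where the genes of granzymes A and B did not pass in the same fit, while with array weights Gzmb did.

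Several of the receptors lie in 1 stretch of chromosome 6, the NK gene complex. In RefSeq order the measured genes run Klre1, Klrd1, Klrk1, Klrc3, Klrc2, Klrc1, Klri1, Klri2 and Klrh1. Of these 9, Klrd1 and Klri1 rose in the heterozygous leukaemias against B220+ cells and the 7 others did not pass. Between them, Klrk1 had 0.63 ± 0.60, Klrc3 0.48 ± 0.55, Klrc2 0.26 ± 0.51 and Klrc1 0.47 ± 0.69. Klri2, next to Klri1 on the far side, had -0.20 ± 0.27. The Klrc genes encode NKG2 proteins, the partners of CD94. They are close paralogs, as are Klri1 and Klri2, and hybridisation of 1 gene's RNA to another's probes was not checked.

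**Figure D3:**
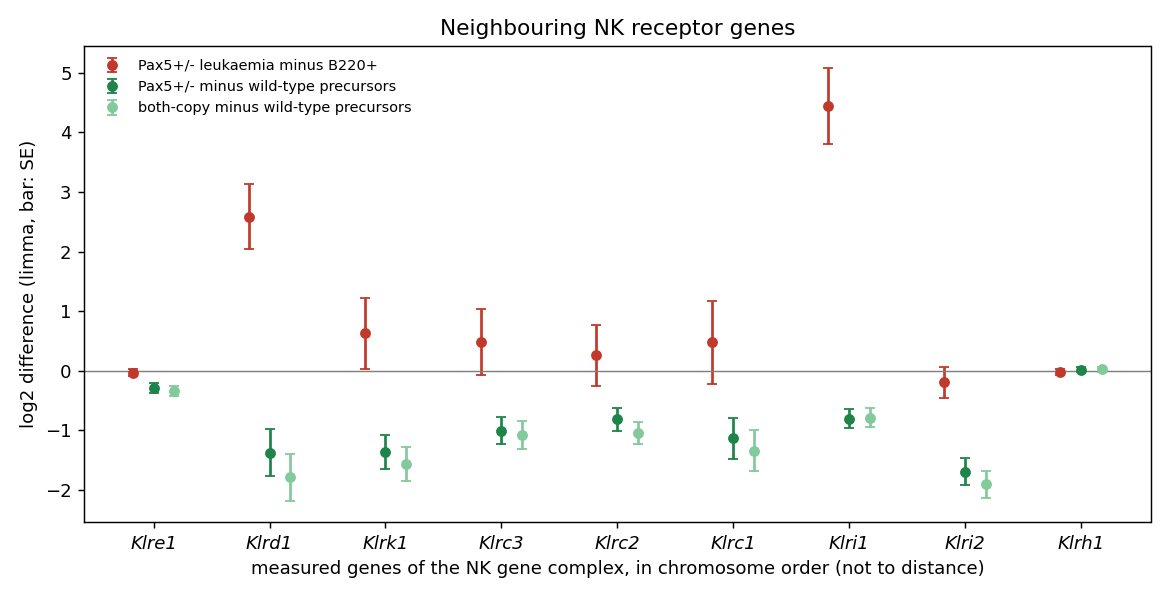
Log2 difference (limma, bars give the SE) of the 9 measured genes of the NK gene complex in chromosome order, for 3 comparisons in 3 colours. Against B220+ cells the heterozygous leukaemias show Klrd1 at 2.58 and Klri1 at 4.44 with the genes between them at 0.63 or below, and against wild-type precursors both oncogene-bearing groups lie below 0 for every gene but Klrh1.

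The both-copy leukaemias were compared with the same B220+ arrays, which the 2 comparisons therefore share. By limma 0 of the 10 genes were called, where 21.4% of all genes were, and 2 had an unadjusted p under 0.05. These were Klri2 (-0.85 ± 0.38, adjusted p = 0.132) and Nkg7 (1.86 ± 0.79, adjusted p = 0.113). Klri1 was at 5.64 and 6.88 in the 2 both-copy leukaemias, a difference of 0.10 ± 0.92, and Klrd1 at 7.499 and 8.08, a difference of 0.012 ± 0.78. Both lay within the B220+ range for Klrd1, and for Klri1 1 lay within and 1 below. With 2 arrays the limits are wide. Without both-copy leukaemia 2, Klri2 was called (-1.46, adjusted p = 0.0309), in a fit where the 1 remaining array is assumed to vary like the other groups.

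Setting the leukaemias against each other asks what the Pax5 label goes with in the tumours. Klri1 was 4.34 ± 0.88 higher in the heterozygous leukaemias, and all 7 lay above both both-copy arrays. Since Klri1 was noted from this contrast, the value is a description. It is the 1 gene of the 10 past the threshold, where 1.87% of all genes were called, and the 1 with every heterozygous array higher, where 4.25% were. Klrd1 had 2.57 ± 0.75 and did not pass (adjusted p = 0.115). Its lowest heterozygous array, leukaemia 5 at 8.08, stood level with the higher both-copy array. Klri1 no longer passed without both-copy leukaemia 1 (difference 3.72), where the lone both-copy array is again assumed to vary like the others. It was also lost with array weights (4.44) and with the replicate number as a block (4.64), and Klrd1 passed without heterozygous leukaemia 5 (2.95, adjusted p = 0.0162). For the remaining 8 genes the differences lay between -1.30 (Nkg7) and 0.97 (Klrb1c). Nkg7 was at 11.50 and 10.87 in the both-copy leukaemias, within the heterozygous range of 8.43 to 11.51.

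Few of the listed partner genes differed between the leukaemias. Of the adaptors and kinases Fyn was higher in the heterozygous leukaemias (1.26 ± 0.22, adjusted p = 0.0105). The granzyme-processing protease gene Ctsc (1.02 ± 0.20, adjusted p = 0.0232) and Serpinb9d (5.32 ± 0.92, adjusted p = 0.0105) were higher too. Serpinb9d averaged 10.04 ± 1.67 in the heterozygous leukaemias (n = 7) and 4.72 ± 0.091 in the both-copy leukaemias (n = 2). Markers of other cells moved as well. The neutrophil genes Elane (-3.95), Mpo (-4.13) and Camp (-3.96) and the basophil genes Mcpt8 (-3.41) and Gata2 (-1.39) were lower. Among the B lineage markers Cd79b alone passed, as higher in the heterozygous leukaemias (1.29 ± 0.29, limma adjusted p = 0.0427). Pax5 itself had 1.83 ± 0.73 (adjusted p = 0.263), and Dntt was the only B lineage marker below 0 (-0.57 ± 1.53). Neutrophil markers averaged 12.15 and 12.72 on the both-copy arrays and 7.44 to 10.51 on the heterozygous ones. The part of neutrophil, basophil and B lineage RNA in the differences of the NK genes was not tested.

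In the precursor set the differences ran below 0. Against wild-type precursors, 5 of the 6 receptor genes were lower in the oncogene-bearing cells with the Pax5 change, and all 6 together with Gzma and Prf1 without it. In the heterozygous precursors 5 of the 10 genes fell and 0 rose (limma, and 0 rose at an unadjusted p under 0.05), where 4.17% of all genes were called and 2.94% fell. The 5 were Ncr1, Klrk1, Klrb1c, Klri1 and Klri2. The median over the 10 genes was -1.28, against 0.029 over all genes. In the both-copy precursors 8 fell and 0 rose (also 0 at an unadjusted p under 0.05), where 27.1% of all genes were called and 15.5% fell, all but Gzmb and Nkg7. The median was -1.58, against 0.037 over all genes. The 2 comparisons share the 4 wild-type arrays, so they are not independent of each other.

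Ncr1 was at 10.08, 9.47, 9.37 and 9.13 in the wild-type precursors, at 7.74, 7.85 and 7.24 in the heterozygous precursors and at 6.45, 7.76 and 6.25 in the both-copy precursors. Neither oncogene-bearing group overlapped the wild type. The fall was 1.90 ± 0.35 with the Pax5 change (adjusted p = 0.0261) and 2.69 ± 0.35 without it (adjusted p = 0.00303). Klri2 was at 8.09, 7.38, 7.54 and 7.10 in the wild type, at 5.95, 5.97 and 5.58 in the heterozygous and at 5.38, 6.02 and 5.47 in the both-copy precursors. It too was clear of overlap, and fell by 1.69 ± 0.23 (adjusted p = 0.0133) and by 1.91 ± 0.23 (adjusted p = 0.00265). NKG2D (Klrk1) fell by 1.36 ± 0.28 and 1.56 ± 0.28 and NK1.1 (Klrb1c) by 1.28 ± 0.29 and 1.59 ± 0.29, both from wild-type arrays that stood above every oncogene-bearing array. Klri1, the gene that was high in the heterozygous leukaemias, was at 6.69, 6.70, 6.69 and 6.00 in the wild type, at 5.73, 5.70 and 5.70 in the heterozygous and at 5.69, 5.83 and 5.66 in the both-copy precursors. Its falls were 0.81 ± 0.16 (adjusted p = 0.0288) and 0.79 ± 0.16 (adjusted p = 0.00916), the smallest among the receptors. The CD94 gene Klrd1 was at 9.76, 9.37, 9.12 and 9.19 in the wild type and no higher than 8.64 in the others, with -1.37 ± 0.39 (adjusted p = 0.08) in the heterozygous precursors and a called fall of 1.79 ± 0.39 (adjusted p = 0.0124) in the both-copy ones.

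Of the granule genes, Gzma had the largest difference. It was at 9.36, 8.82, 8.97 and 8.89 in the wild type, at 7.25, 8.58 and 7.34 in the heterozygous precursors and at 6.40, 7.79 and 6.40 in the both-copy precursors. All 6 oncogene-bearing arrays lay below the wild type. The difference was -1.29 ± 0.40 with the Pax5 change (adjusted p = 0.0963), and without it Gzma fell by 2.15 ± 0.40 (adjusted p = 0.00699). Perforin had -0.57 ± 0.22 (adjusted p = 0.157) and fell by 0.82 ± 0.22 (adjusted p = 0.0231) in the both-copy precursors. Gzmb and Nkg7 overlapped the wild type in both groups, with differences of -0.24 and -0.31 for Gzmb and of -0.69 and -1.003 for Nkg7. Groups that did not overlap, with the wild type higher, were found for 8 of the 10 genes in each comparison, where 12% of all genes were so in the heterozygous and 22.9% in the both-copy comparison.

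**Figure D4:**
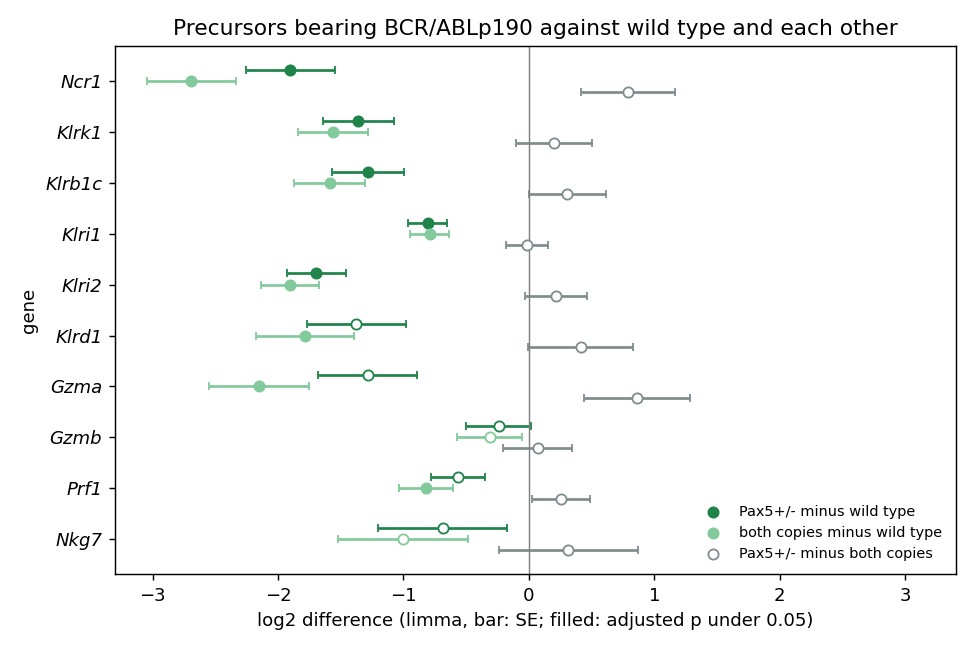
Log2 difference (limma, bars give the SE) of the 10 genes between precursor groups, with filled points where the adjusted p is under 0.05. Against wild type all 20 points lie below 0, from -0.24 for Gzmb to -2.69 for Ncr1, and between the oncogene-bearing groups no point is filled.

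The comparison of heterozygous with both-copy precursors asks what the Pax5 change adds before leukaemia. By limma 0 of the 10 genes were called and 0 had an unadjusted p under 0.05, where 0.0251% of all genes were called. The largest differences were Gzma at 0.86 ± 0.42 (adjusted p = 0.384) and Ncr1 at 0.79 ± 0.38 (adjusted p = 0.378), and Klri1 had -0.017 ± 0.17 (adjusted p = 0.973). Between same-numbered arrays, which the labels do not pair, Gzma was higher in the heterozygous sample by 0.86, 0.79 and 0.95. Ncr1 was higher there by 1.29, 0.087 and 0.99, so both genes kept 1 sign in all 3 cases. The replicate number was then fitted as a block over the whole precursor set, wild-type arrays included. In that limma fit the adjusted p was 0.376 for Gzma and 0.368 for Ncr1, and still 0 of the 10 genes were called. Arrays of the 2 groups overlapped for all 10 genes, where 7.05% of all genes were clear of overlap with the heterozygous group higher and 9.41% with it lower.

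NK markers as a whole moved with the precursor groups. Their mean was 7.68 to 8.61 on the wild-type arrays, 6.44 to 7.33 in the heterozygous and 6.14 to 7.11 in the both-copy precursors. All 7 fell in the both-copy precursors, and 3 of 7 fell in the heterozygous ones, Ncr1, Klrb1c and Klra8. Ncr1 and Klrb1c are members of the gene set, so these counts and means are not independent of the results above. Klre1 averaged 5.26 in the wild type and 4.92 in the both-copy precursors, below the 25th percentile of all gene levels (5.68). Eomes, a T-box factor of NK cells, had -1.08 ± 0.36 (adjusted p = 0.117) in the heterozygous and fell by 1.72 ± 0.36 (adjusted p = 0.0109) in the both-copy precursors. Markers of plasmacytoid dendritic cells, which carry B220 as well, moved alongside, from 9.51 to 9.74 in the wild type to 7.65 to 8.999 and 7.88 to 8.89. Of the 4 measured, out of 6 listed, 1 fell in the heterozygous and 3 fell in the both-copy precursors, among them Ccr9 (-1.94 ± 0.39, adjusted p = 0.00922 in the latter). T cell markers averaged 6.50 to 6.60 in the wild type, 6.23 to 6.42 in the heterozygous and 6.33 to 6.44 in the both-copy precursors, and 2 and 4 of 15 fell. B lineage markers averaged 11.61 to 11.74 in the wild type, 11.60 to 11.74 in the heterozygous and 11.63 to 11.71 in the both-copy precursors, where Cd79a rose (0.32 ± 0.093) and Cd22 fell (-0.40 ± 0.097). The part of NK, dendritic or T cells in the precursor samples was not tested.

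The falls extended to other NK receptors. Of the 24 measured 8 fell and 1 rose in the heterozygous precursors (median -0.38), and 13 fell in the both-copy precursors (median -0.48). The NK markers Klre1, Klrc1 and Klra8 are counted again among these 24. In the NK gene complex, Klrc2 fell by 0.82 ± 0.19 and 1.05 ± 0.19 and Klrc3 by 1.00 ± 0.23 and 1.08 ± 0.23. Of 18 adaptors and kinases 3 and 7 fell, of 13 cytokine receptors and integrins 1 and 5, of 12 transcription factors 3 and 5, and of 26 other granule and effector genes 2 and 8. Over all genes 2.94% fell in the heterozygous and 15.5% in the both-copy precursors. Tbx21, Id2 and Ikzf2, named after their values were seen, were the 3 factors called in the heterozygous precursors, with falls of 0.71 ± 0.13, 1.09 ± 0.21 and 0.57 ± 0.092. Tbx21 encodes T-bet, which with Eomes drives NK cell maturation. The 6 serpins did not pass in the heterozygous precursors, and Serpinb9 and Serpinb6b fell by 0.75 ± 0.16 and 0.78 ± 0.22 in the both-copy ones.

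These counts rest on few arrays. In the heterozygous precursors the number of the 10 genes called was 1 without heterozygous array 1 or without wild-type array 1 or 2, 3 without heterozygous array 2 or 3, and 0 without wild-type array 3. The both-copy count was 7 or 8 whichever array was left out. Sex differed between the groups, and with sex in the fit 4 of the 8 both-copy calls were kept, while Gzma, Klri1, Klrk1 and Prf1 no longer passed (adjusted p of 0.0747, 0.195, 0.0766 and 0.151). Their differences in that fit were -2.72, -0.80, -1.94 and -1.17, no smaller in size than without sex. In the heterozygous comparison Klrk1 and Klri1 then no longer passed (differences -1.61 and -0.82, adjusted p of 0.0548 and 0.0881) and Klrd1 did (-2.30, adjusted p = 0.0163). As all both-copy precursors were male and all wild-type ones female, that fit takes its estimate of sex from the 3 heterozygous arrays.

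The wild-type precursors also stood above the wild-type B220+ cells, which places the level of the control itself. All 10 genes were higher on average, with a median of 1.27, against -0.0035 over all genes. Gzma (1.89 ± 0.51, adjusted p = 0.0218) and Klri2 (1.15 ± 0.28, adjusted p = 0.0122) were called, 2 of 10 where 8.84% of all genes were called and 4.26% were higher. For 8 of the 10 genes the arrays did not overlap, where 11.3% of all genes were so. Ncr1 had 1.60 ± 0.79 (adjusted p = 0.263), and Klri1 with 0.36 ± 0.60 had the smallest difference. Of the 7 NK markers 2 rose, Klre1 and Klra8, though Klre1 averaged only 4.91 in B220+ cells and 5.26 in the wild-type precursors. Both lie below the 25th percentile of all gene levels (5.68). Neither Gzma nor Klri2 was called without wild-type precursor array 1, and Gzma was lost without B220+ array 2 or 3 or wild-type precursor array 3. With heterozygous leukaemia 1 left out of the fit, where it adds to the estimate of spread, 5 were called.

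Across stages, the heterozygous leukaemias were set against heterozygous precursors. Klri1 rose by 4.89 ± 0.61 (adjusted p = 5.89e-06) and Klrd1 by 2.38 ± 0.57 (adjusted p = 0.00263), 2 of 10 where 44.7% of all genes were called. The Klri1 values here and against wild-type precursors reuse the leukaemia arrays it was noted from, so they are not independent of that choice. Without leukaemia 1, 4 were called, with Ncr1 (-1.66, adjusted p = 0.0116) and Gzma (-1.45, adjusted p = 0.00262) lower. Gzmb passed as higher with array weights (1.29, limma adjusted p = 0.0288) and with the replicate number as a block (1.70, adjusted p = 0.0421). Against wild-type precursors, Klri1 was higher in the heterozygous leukaemias (4.08 ± 0.56, adjusted p = 1.71e-05) and Ncr1, Klri2 and Gzma were lower, by 2.90 ± 0.73, 1.34 ± 0.26 and 2.33 ± 0.47 in size. These are 4 of 10 where 32.2% were called. Klrd1 had 1.00 ± 0.52 there (adjusted p = 0.147). In the both-copy mice 0 of the 10 genes were called by limma between leukaemia and precursors, where 45.7% of all genes were, and Nkg7 alone had an unadjusted p under 0.05 (1.75 ± 0.81, adjusted p = 0.0846).

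Whether an effect differed between the stages was tested as an interaction on all 24 arrays. The difference of heterozygous from wild-type samples was greater in leukaemia than in precursors for Klri1 (by 5.25 ± 0.86, adjusted p = 0.00015), Klrd1 (3.96 ± 0.79, adjusted p = 0.00101) and Klri2 (1.496 ± 0.40, adjusted p = 0.00923), 3 of 10 where 30.2% of all genes were called. For Klri2 this is the distance between a fall of 1.69 in precursors and -0.20 in leukaemia. The Klri1 value again reuses the leukaemia arrays it was noted from. The wild-type reference was B220+ cells at one stage and pro-B and pre-B cells at the other, so stage and cell fraction cannot be told apart. The heterozygous samples carry the oncogene as well as the Pax5 change, and these cannot be told apart here either. The difference between heterozygous and both-copy samples had 0 of 10 genes called between stages by limma, where 0.692% of all genes were, and 2 with an unadjusted p under 0.05. Klri1 had 4.36 ± 1.02, which contains the contrast it was noted from, and Klrd1 had 2.16 ± 0.94 (adjusted p = 0.331).

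Among the 7 heterozygous leukaemias the genes were compared in pairs, 45 in all. Pearson's r was above 0 for 41 pairs, and 0 passed Benjamini-Hochberg adjustment over the 45 with exact permutation p-values, by Pearson or by Spearman. At an unadjusted p under 0.05 there were 12 and 9. Klri1 and Klrd1 had r = 0.873 (exact permutation p = 0.0179, adjusted 0.124) and rho = 0.643 (exact p = 0.139, adjusted 0.417). Without the 2 arrays farthest from the Klri1 median r was 0.463. Klri1 and Ncr1 had r = 0.197 and rho = -0.286 (exact permutation p = 0.651 and 0.556, adjusted 0.733 and 0.807). Ncr1 and Klrb1c had r = 0.922 and rho = 0.464 (exact permutation p = 0.0183 and 0.302, adjusted 0.124 and 0.592), and r = -0.352 without the 2 farthest arrays, so the relation rests on those. Ncr1 and Gzma had r = 0.908 and rho = 0.893 (exact permutation p = 0.0468 and 0.0123, adjusted 0.176 and 0.179), and r = 0.980 without them. On the arrays then left Ncr1 ran only from 5.41 to 5.81, near the 25th percentile of all gene levels (5.68).

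Over the 24 arrays, which share groups and processing, the genes whose levels most resembled each member were also listed, as a description. Other members were left out of this ranking. Klri1 was followed by Rgl1 (r = 0.96), Hip1 (0.95) and Sema4c (0.93), and Klrd1 by Rnd3 (0.92), Sema4c (0.91) and Fyn (0.87). None of these 5 encodes an NK receptor. Ncr1 was followed by Klrb1a (0.90), Samd3 (0.89) and Havcr1 (0.83), Klrb1c by Klrb1a (0.90) and Klrk1 by Klrc1 (0.90). Among the members left out, Gzma (0.88) and Klrb1c (0.85) were closer to Ncr1 than Havcr1 was. Gzmb was nearest to the T cell receptor chain gene Cd3d (0.89), Prf1 to Ifng (0.89) and Eomes (0.87), and Nkg7 to the chemokine gene Ccl5 (0.82). With group means removed, Ncr1 was again nearest to Klrb1a (0.95), with Cd160 (0.93) and Klrc2 (0.92) next, and Klri1 again near Hip1 (0.88). Klrd1 was then nearest to F2r (0.87), Ctsw (0.86) and Il2rb (0.85), the last of which is among the NK markers listed above.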

How the data were processed

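Trizol-extracted RNA of 24 samples was measured on Affymetrix mouse arrays. The authors' deposited table holds log2 expression values for 35556 probe sets, made with RMA in oligo per the submitters' processing notes, with versions not given in the sources used here. No source says if 1 normalization covered them all. Probe sets with 1 gene symbol were used (21789; 1621 had several and 12146 none), the one with the highest mean standing for each of 19938 genes. Groups came from sample titles, which call the replicates biological. Differences come from limma (version 3.58.1, R 4.3.3; two-sided moderated tests after lmFit and eBayes, Benjamini-Hochberg over all genes, adjusted p threshold 0.05). The leukaemia set (14 arrays) and the precursor set (10) were fitted apart, and comparisons across sets used all 24. The fits were tested on simulated data. No dim genes were removed, and array number limits the precision. Named list genes were the 3 with the smallest adjusted p in the heterozygous leukaemias against B220+ cells or between leukaemias, plus defining markers. The members and lists were chosen with earlier results of these data known. Same-numbered heterozygous and both-copy precursors deviated together (r of 0.208, 0.213 and 0.250), but the labels name no pairs. Both-copy and wild-type precursors 1 had r = 0.304, so a pairing was not established. Alternatives were other scalings, array weights, a dim filter, an intensity-dependent spread, 1 fit of all arrays, a replicate block, each array left out and, chosen after seeing the data, sex from Xist as a covariate. Batches are not given.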

Additional observations from a re-analysis of the deposited data

Results flagged for a closer look

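Gzma was at 9.14 in heterozygous leukaemia 1, where the nearest of the other 6 was at 6.67, a gap too wide for the group by Dixon's criterion. By the same criterion Klri1 stood high in B220+ array 4 at 6.89, with the next at 6.11, and low in wild-type precursor array 4 at 6.00, with the next at 6.69. These are 3 of 30 groups checked, and chance flags about 1 in 20. The heterozygous difference from wild type was larger in leukaemia than in precursors for Klri1 (5.25 on the log2 scale), Klrd1 (3.96) and Klri2 (1.496), tested as an interaction in limma. For Klri1 this test reuses the leukaemia arrays it was noted from.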

How the results depend on the processing

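For the 10 genes over the 12 comparisons, no difference that passed limma reversed its sign under any alternative run. Counts below are of the 10 genes called. With array weights the count was 0 between the leukaemias, 8 for heterozygous against wild-type precursors and 8 for wild-type precursors against B220+ cells. It was 9 for the difference of heterozygous from wild-type samples compared between stages. With all 24 arrays in 1 fit it was 2 between the leukaemias, 1 in the heterozygous and 3 in the both-copy precursors. With sex as a covariate it was 4 in the both-copy precursors. For the Pax5 copy effect between stages it was 1 (Klri1) with median centring, with a spread that follows intensity and with the dim filter. With the replicate number as a block, the count was 0 between the leukaemias, 0 for wild-type precursors against B220+ cells and 1 for the Pax5 copy effect. In those groups samples share a number alone. For heterozygous against both-copy precursors, where same-numbered arrays deviated together but the labels name no pairs, the block left 0 called. The block moved no other count by over 1.5 times. With each array left out in turn the counts ran from 2 to 4 for heterozygous leukaemias against B220+ cells, 0 to 1 for both-copy leukaemias against B220+ cells, 0 to 2 between the leukaemias, 0 to 5 and 7 to 8 for heterozygous and both-copy precursors against wild type, 2 to 4 for heterozygous leukaemias against heterozygous precursors, 0 to 5 for wild-type precursors against B220+ cells and 0 to 1 for the Pax5 copy effect. The causes of these changes were not tested. With 2 both-copy leukaemias and 3 arrays in each oncogene-bearing precursor group, small differences could not be resolved, and RMA values carry no detection call.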
